A study of Mus musculus with 8 samples.

Results

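Isolated H3K27me3 peaks were studied in mouse morulae that had been injected as zygotes with mRNA for the mutant form of Kdm6b (Kdm6bMUT). A peak of the Kdm6bMUT list was taken as isolated when it lay on chromosomes 1 to 19, was under 10000 bases wide, and had no other Kdm6bMUT peak within 50000 bases of either edge. The members were thus chosen by the widths and gaps of the Kdm6bMUT list itself. The rule was met by 1215 of the 90158 peaks of the list. They were 1.37% of the 88804 autosomal peaks and held 0.440% of the autosomal peak bases. The other 83790 autosomal peaks under 10000 bases, called remaining peaks here, served for comparison. No peak of 10000 bases or more stood that far from its neighbours: 0 of 3799 had a nearest gap above 50 kb, so the width limit left out no isolated peak.

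H3K27me3, methylation of a lysine in the tail of histone H3, is laid down by Polycomb repressive complex 2 and accompanies gene silencing. In oocytes and early embryos it forms broad domains over maternal chromatin, often far from genes, and in the early embryo some of these domains mark maternal alleles for silencing. Kdm6b is a demethylase that takes this mark off. Peaks that stand far from any other called peak are the sparse end of the peak list. Whether each of them carries H3K27me3 was not tested.

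The 8 samples of the series comprise 2 ChIP libraries, 2 input libraries and 4 RNA libraries, and the RNA libraries were not used here. Both ChIP groups are morulae labelled as the hybrid BDF1xPWK, from oocytes of BDF1 females 8 weeks old. The injection protocol in the labels names BDF1 sperm, which does not match the hybrid tag. Their zygotes were injected between 2.5 and 4 hours after fertilization with mRNA at 1.8 µg/µl, for Kdm6bWT in one group and for Kdm6bMUT in the other. Each group has 1 ultra-low-input native ChIP library, called against input. The inputs are tagged as not injected although their titles name an injection, no ChIP library came from uninjected embryos, and the number of embryos per ChIP library is not given in the sources used here. The morula label could not be checked, because no gene was placed on the mm9 peaks. Neither list gives read counts, so depth is unknown, and with 1 library a group there is no replicate check and no p-value. Intervals given with shares below are 95% exact (Clopper-Pearson) intervals that cover counting error only.

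Isolated peaks were narrow. Their width had a median of 697 bases (quartiles 387 and 1199) and ranged from 300 to 6244 bases. Remaining peaks had a median of 1516 bases (quartiles 763 and 3017). Of the isolated peaks, 176 (14.5%, interval 12.6% to 16.6%) had 300 bases, the smallest width in the list, against 4.23% of the remaining peaks. Widths up to 1000 bases made up 66.5% of the isolated and 33.3% of the remaining peaks. Widths above 2000 bases were found in 82 isolated peaks, or 6.75%, and in 39.4% of the remaining peaks. The 3 widest isolated peaks were one on chromosome 3 (64086572 to 64092815) of 6244 bases, another on chromosome 3 (102457221 to 102462923) of 5703 bases, and one on chromosome 12 (107229665 to 107234953) of 5289 bases. Width and position both come from the list that chose these peaks, so these values describe the set and were not tested.

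**Figure D1:**
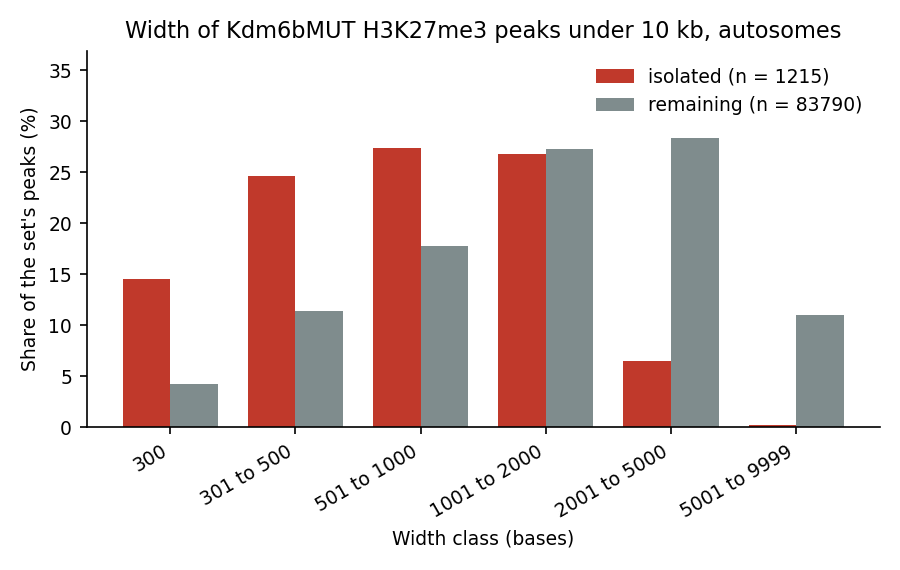
Share of peaks (%) in each width class (bases) for 1215 isolated and 83790 remaining autosomal Kdm6bMUT peaks under 10 kb; each bar is a share of its own set. Isolated peaks fill the classes up to 1000 bases (66.5% of them), while 39.4% of the remaining peaks are wider than 2000 bases.

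Most isolated peaks stood well beyond the limit of 50 kb. The gap to the nearest other Kdm6bMUT peak had a median of 112 kb (quartiles 69.9 kb and 214 kb), and the gap on the farther side a median of 375 kb. In the remaining peaks the nearest gap had a median of 1.93 kb. Of the isolated peaks, 684 (56.3%) had a nearest gap above 100 kb, 90 above 500 kb and 13 above 1 Mb. First or last on their chromosome, and so with 1 neighbour only, were 14 isolated peaks. The most isolated peak lay on chromosome 14 (6016733 to 6017668), with its only neighbour 3008 kb away. It was followed by a peak on chromosome 15 (3529108 to 3531641), also with 1 neighbour, at 2715 kb. Next came a peak on chromosome 8 (110433373 to 110434306), with neighbours on both sides, at 1960 kb. None of these 3 was touched by a Kdm6bWT peak, although one lay 7.79 kb from the chromosome 8 peak. At the threshold, the closest accepted peaks had nearest gaps of 50033 bases (chromosome 4, 26501656 to 26501955) and 50152 bases (chromosome 12, 10515655 to 10516487). The nearest peaks left out had gaps of 49935 bases (chromosome 4, 121109400 to 121110730) and 49919 bases (chromosome 3, 7419831 to 7420130).

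Isolated peaks were also counted in runs along a chromosome. A run is a series of isolated peaks with no other Kdm6bMUT peak between them. Of the 1215 isolated peaks, 563 (46.3%) belonged to 234 runs of 2 or more. The neighbour of an isolated peak already meets the gap limit on the side they share, so runs are partly set by the rule. No expected number of runs was computed. The longest run held 7 peaks over 1649 kb on chromosome 14 (38673500 to 40322425). Runs of 6 peaks spanned 3644 kb on chromosome 2 (5073077 to 8716590) and 1995 kb on chromosome 12 (89788999 to 91784344). No Kdm6bWT peak touched any member of these 3 runs.

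Isolated peaks were spread over all 19 autosomes, at 0.505 per Mb in all, with more of them near the centromeric ends than the remaining peaks had. Mouse autosomes carry their centromere at the end where coordinates begin. The first 20% of the chromosomes, measured from the first to the last peak of either list, held 331 isolated peaks (27.2%) and 7.70% of the remaining peaks. The rule picks peaks where the list is sparse, and the first 2 segments of 10% held only 3.24% and 4.46% of the remaining peaks. The contrast is thus shaped by the rule. Each further segment of 10% held between 7.41% and 10.4% of the isolated peaks. The median width of isolated peaks ranged from 615 to 894 bases over the 10 segments of 10%, with 738 bases in the first and 711 bases in the last. In remaining peaks it ranged from 1198 bases in the first segment to 1709 bases in the last. Within 1 Mb of the first peak of a chromosome lay 15 isolated peaks, 1.23% of them, and 0.354% of the remaining peaks.

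**Figure D2:**
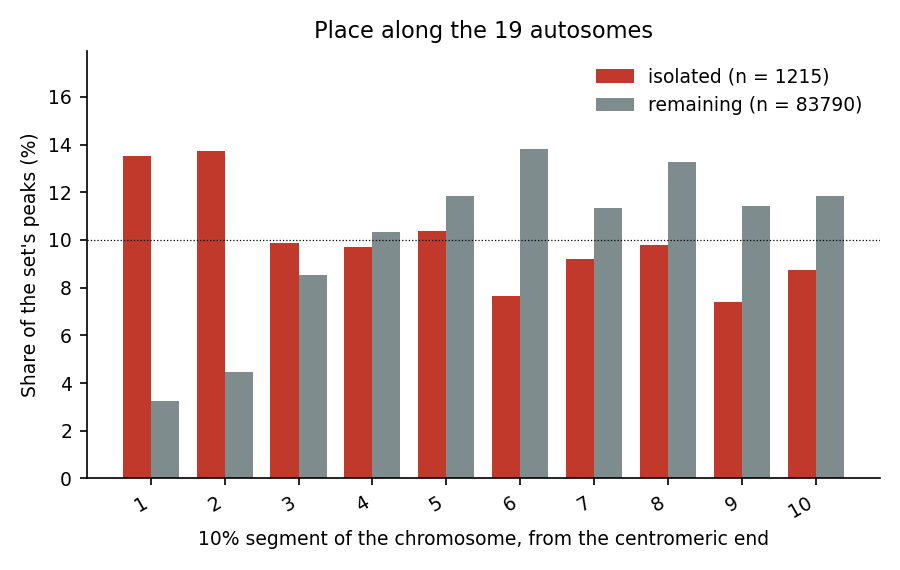
Share of peaks (%) in each 10% segment of the chromosome, counted from the centromeric end over 19 autosomes, for isolated and remaining Kdm6bMUT peaks under 10 kb; the dotted line is an even spread. The first 2 segments hold 27.2% of the isolated and 7.70% of the remaining peaks, a contrast shaped by the rule, which picks peaks where the list is sparse.

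The density of isolated peaks lay in a narrow range over the autosomes. It ran from 0.411 per Mb on chromosome 13, with 48 peaks, to 0.604 per Mb on chromosome 15, with 60 peaks. Chromosome 1 had the most, 98, and chromosome 19 the fewest, 34. As a share of the chromosome's peaks under 10000 bases, isolated peaks ranged from 1.12% on chromosome 9 to 2.17% on chromosome 19. Chromosome 19 was also the autosome least covered by Kdm6bMUT peaks (5.84% of its length), and it had 0.586 isolated peaks per Mb. Chromosome 17, the most covered (12.5%), had 0.449 per Mb. Over the 19 autosomes the density of isolated peaks and the covered length had a Spearman correlation of -0.43. This is a description of 1 library, since both values come from the same peaks, and a chromosome with more peaks leaves fewer gaps.

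**Figure D3:**
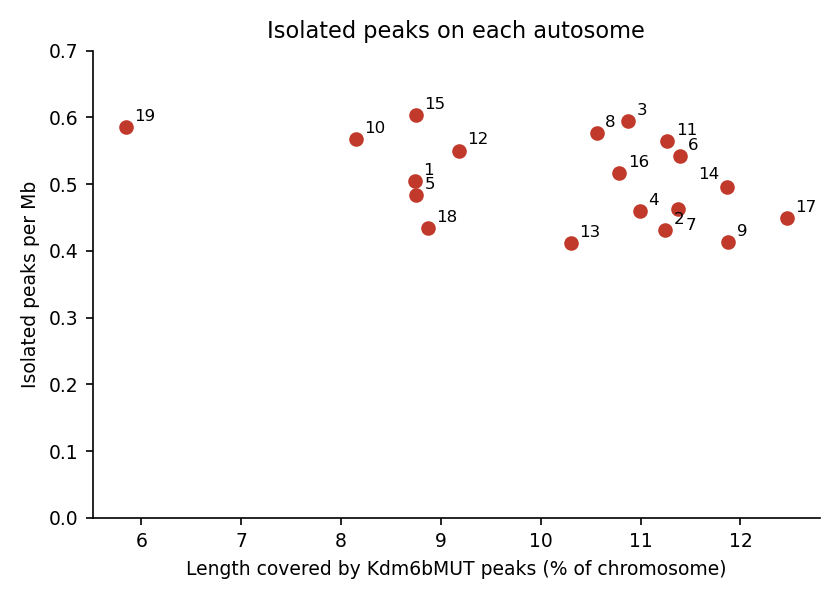
Isolated Kdm6bMUT peaks per Mb against the length covered by all Kdm6bMUT peaks (% of the chromosome), one point for each of 19 autosomes, labelled by number. Densities lie between 0.411 and 0.604 per Mb, and the Spearman correlation is -0.43.

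By the authors' values, isolated peaks were slightly weaker than remaining peaks of like width. Fold enrichment is the ChIP signal over input, and the score is close to 10 times the −log10 q. Remaining peaks were weighted so that their 6 width classes (300 bases, then up to 500, 1000, 2000, 5000 and under 10000 bases) had the shares found in the isolated peaks. The median fold enrichment was 2.86 (quartiles 2.75 and 3.08) in isolated peaks and 3.00 (2.81 and 3.23) in the weighted remaining peaks. The median score was 15 (13 and 18) against 17 (14 and 20). The lowest autosomal score was 10, and scores from 10 to 14 made up 44.9% of isolated and 21.6% of all remaining peaks. The median fold was lower in isolated peaks in each of the 6 width classes, from 3.00 against 3.01 at 300 bases to 3.02 against 3.23 above 5000 bases. The lowest −log10 p of the Kdm6bWT list, 3.67, was reached by 288 isolated peaks (23.7%) and by 37.5% of the weighted remaining peaks.

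A small number of isolated peaks had very high scores. Among the 20 highest-scoring autosomal Kdm6bMUT peaks under 10000 bases, 7 (35.0%) were isolated, and among the highest 100, 12 were. The 3 highest-scoring isolated peaks lay on chromosome 9 (35112689 to 35113257, 569 bases), chromosome 3 (35579235 to 35580035, 801 bases) and chromosome 12 (3109733 to 3110266, 534 bases). Their scores were 308, 249 and 199, beside fold enrichments of 2.79, 4.64 and 3.00. The highest fold enrichments belonged to other isolated peaks, on chromosome 7 (97120784 to 97121382) with a fold of 6.56 and a score of 87, and on chromosome 6 (114501354 to 114501877) with 5.83 and 62. Neither of these, which were picked after their values were seen, was touched by a Kdm6bWT peak.

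Few Kdm6bMUT peaks, isolated or not, were touched by a Kdm6bWT peak. The Kdm6bWT list had 4788 autosomal peaks against 88804 in the Kdm6bMUT list, which limits these shares. Of the 1215 isolated peaks, 23 (1.89%, interval 1.20% to 2.83%) shared at least 1 base with a Kdm6bWT peak, on 13 of the 19 autosomes. Among all autosomal Kdm6bMUT peaks the share was 2.63%, inside that interval. Wider remaining peaks were touched more often, so like widths were compared. Weighted to the widths of the isolated peaks, the remaining peaks were touched in 0.974%, which is below the interval, and the ratio of isolated to remaining was 1.94 (1.24 to 2.90 from the interval of the isolated share). This ratio fell to 1.21 without peaks whose score was above 31, the 99th percentile. It was below 1 under 5 other settings, with values between 0.710 and 0.984 that are given among the settings in the closing section. No test of the difference was made, since peaks of 1 library are not replicates.

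The higher share was found in isolated peaks up to 1000 bases. At 300 bases, 3 of 176 isolated peaks (1.70%, interval 0.353% to 4.90%) and 0.452% of the remaining peaks, inside that interval, were touched. Above 300 and up to 500 bases the values were 6 of 299 (2.01%, 0.740% to 4.32%) and 0.642%, and above 500 and up to 1000 bases 9 of 333 (2.70%, 1.24% to 5.07%) and 0.792%, with the remaining share below the interval of the isolated peaks in both classes. Above 1000 and up to 2000 bases, 3 of 325 isolated peaks (0.923%, 0.191% to 2.67%) were touched, with 1.20% of the remaining peaks inside that interval. Above 2000 and up to 5000 bases it was 1 of 79 (1.27%, 0.0320% to 6.85%) against 3.01%. Only 3 isolated peaks were wider than 5000 bases, 1 of them touched.

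Among peaks up to 1000 bases, the share touched was highest at gaps above 500 kb, although the intervals of neighbouring gap classes overlapped throughout. It was 0.746% (interval 0.636% to 0.869%) where the nearest Kdm6bMUT peak lay within 5 kb, 0.569% at 5 to 20 kb and 0.319% (0.0659% to 0.931%) at 20 to 50 kb. Among isolated peaks it was 0.592% (0.0717% to 2.12%) at 50 to 100 kb and 1.21% (0.251% to 3.51%) at 100 to 200 kb. It reached 5.06% (2.21% to 9.73%, 8 of 158) at 200 to 500 kb and 7.69% (2.54% to 17.0%, 5 of 65) above 500 kb. Without peaks scoring above 31, the last 2 shares were 2.01% (0.417% to 5.77%) and 4.76% (0.993% to 13.3%), from 3 peaks each. All 8 touched peaks at 200 to 500 kb had a −log10 p high for their fold, the marked peaks described further below. So did those above 500 kb, except the one on chromosome 17 (4626267 to 4626566). The shares by gap were not computed without the marked peaks. The gap classes were chosen after the data were seen.

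**Figure D4:**
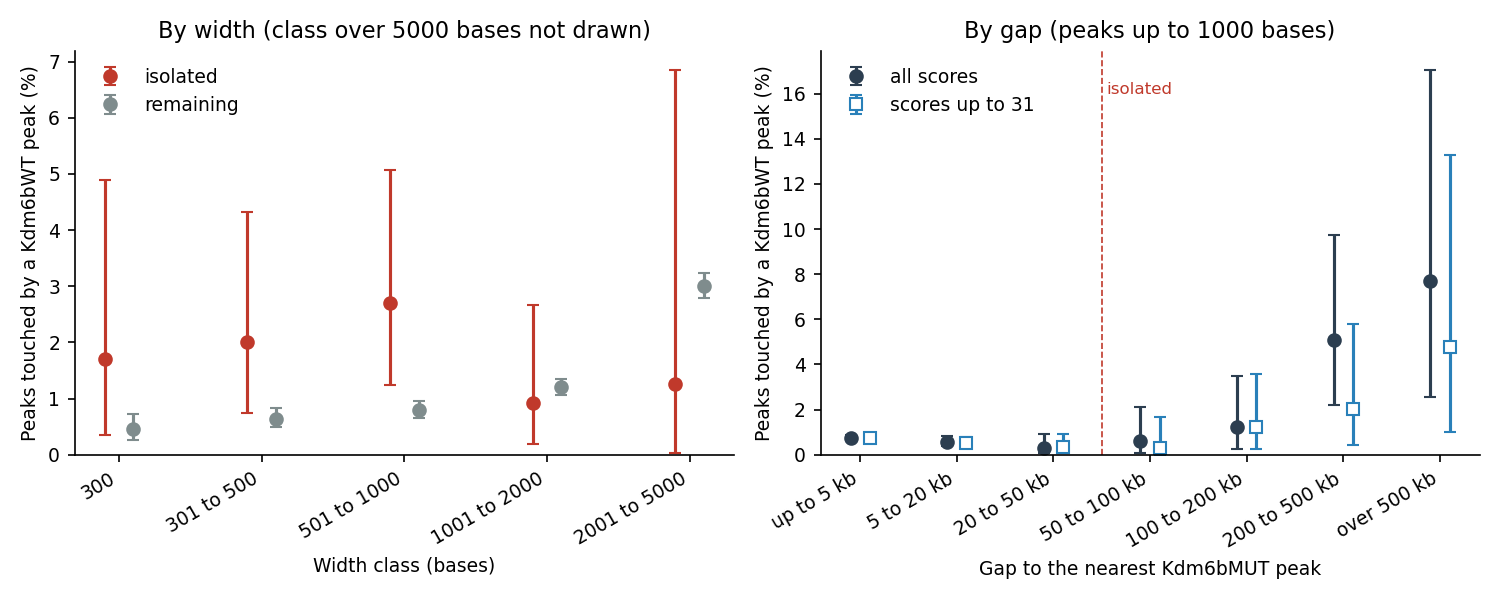
Share of Kdm6bMUT peaks (%) touched by a Kdm6bWT peak, with 95% exact intervals as bars, by width class for isolated and remaining peaks (left; the class above 5000 bases holds 3 isolated peaks and is not drawn) and by gap to the nearest Kdm6bMUT peak for peaks up to 1000 bases (right; gaps right of the dashed line are isolated). In the right panel the share is 0.746% at gaps up to 5 kb, 0.319% at 20 to 50 kb and 7.69% (5 of 65) above 500 kb. Without scores above 31 it is 4.76% above 500 kb. Nearly all touched peaks in the right panel with gaps above 200 kb have a −log10 p high for their fold. The gap classes were chosen after the data were seen.

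The touched isolated peaks were largely covered by their Kdm6bWT peak. Each of the 23 met exactly 1 Kdm6bWT peak, which was the wider of the pair in 18 cases and covered the isolated peak fully in 12. At least 50% of the peak was covered in 18 isolated peaks, 1.48% (interval 0.880% to 2.33%) of all isolated peaks. The share was 0.303% in the weighted remaining peaks and 0.232% in all autosomal Kdm6bMUT peaks. Most of the 18 had a −log10 p high for their fold, the marked peaks described further below. The exceptions lay on chromosome 17 (4626267 to 4626566), chromosome 5 (67162424 to 67162739), chromosome 4 (154328257 to 154330055) and chromosome 10 (28337765 to 28338064). The covered share was not computed without the marked peaks. Kdm6bWT peaks held 12824 of the bases of isolated peaks, or 1.18%, against 0.559% of the bases of remaining peaks. In 20 of the 23 pairs the Kdm6bWT peak had no other Kdm6bWT peak within 50 kb either, as did 63.7% of all autosomal Kdm6bWT peaks.

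Most of the Kdm6bWT peaks on isolated sites were among the strongest of their list. Others scored as low as 10, below the median of the whole Kdm6bWT list, 13. Their Kdm6bWT score had a median of 46 (quartiles 13 and 118), and their Kdm6bWT fold enrichment a median of 5.11 (3.89 and 6.16). The 1805 Kdm6bWT peaks on remaining Kdm6bMUT peaks had medians of 13 and 3.83, and the 2386 off any Kdm6bMUT peak 13 and 3.85. A score of 24 or more, the top 5% of autosomal Kdm6bWT peaks, was reached by 16 of the 23 (69.6%, interval 47.1% to 86.8%). It was reached by 4.60% (3.68% to 5.67%) of those on remaining peaks and 5.99% (5.07% to 7.02%) of those off Kdm6bMUT peaks. Where the Kdm6bMUT peak had at most 1000 bases, the shares were 14 of 18 (77.8%, 52.4% to 93.6%) on isolated and 6.70% (3.62% to 11.2%) on remaining peaks. Without isolated peaks in the first 1 Mb of a chromosome it was 12 of 18 (66.7%, 41.0% to 86.7%), and without Kdm6bMUT scores above 31 it was 7 of 14 (interval 23.0% to 77.0%). These scores come from the library that the rule did not use. Of the 23 isolated peaks, 15 had a −log10 p high for their fold enrichment, the marked peaks described further below. Most of the 16 Kdm6bWT peaks lay on these. Outside the marked peaks, a score of 24 or more was found on chromosome 17 (4626267 to 4626566; 1379) and chromosome 5 (67162424 to 67162739; 40). Whether high Kdm6bWT scores go with isolation or with the marked peaks was not tested.

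The shared isolated site with the highest Kdm6bWT score was far below the highest isolated Kdm6bMUT scores. It was still above the upper quartiles of isolated peaks for score (18) and fold (3.08). It lay on chromosome 17 (4626267 to 4626566), with the next Kdm6bMUT peaks 1587 kb and 2303 kb away. Its Kdm6bMUT score was 21 with a fold of 3.34, while the Kdm6bWT peak over it (4625997 to 4626758) had a score of 1379 and a fold of 49.5. The next 3 by Kdm6bWT score were the sites that also led the isolated Kdm6bMUT peaks by score. The chromosome 9 site had a Kdm6bWT score of 1023 and a fold of 7.30, the chromosome 12 site 686 and 7.56, and the chromosome 3 site at 35579235 had 605 and 10.6. At each of these 3 the Kdm6bWT peak enclosed the Kdm6bMUT peak: the Kdm6bWT peaks ran from 35112650 to 35113295, from 3109722 to 3110291 and from 35579230 to 35580047. Scores and folds cannot be compared between the lists, whose depths are unknown and which differ in the weakest peak accepted.

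The other named shared sites had Kdm6bWT scores between 59 and 198. A peak on chromosome 9 (24345446 to 24346800) had a Kdm6bMUT score of 100 and a Kdm6bWT score of 198, with 38.8% of its bases covered. On chromosome 4 (70038982 to 70039455) the scores were 41 and 151. Both chromosome 5 (3479904 to 3480410; 66 and 62) and chromosome 17 (13498725 to 13499142; 39 and 59) had scores well above the Kdm6bMUT median. By contrast, a peak on chromosome 3 (8245299 to 8246552) and one on chromosome 18 (3005686 to 3005985) had Kdm6bMUT scores of 16 and 15 and folds of 1.88 and 1.71. The fold of 1.71 was the lowest of all isolated peaks. Their Kdm6bWT scores were 84 and 69. The chromosome 18 peak was the first Kdm6bMUT peak of its chromosome, with its only neighbour 495 kb away. Another Kdm6bWT peak lay 1.475 kb from the Kdm6bWT peak over it.

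Shared isolated sites were found more often toward the centromeric ends, with intervals that overlap. Of the 23, 12 lay in the first 20% of their chromosome, where 3.63% (interval 1.89% to 6.25%) of 331 isolated peaks were touched. Over the rest of the chromosomes it was 11 of 884 (1.24%, 0.623% to 2.22%). In remaining peaks the shares were 2.25% and 2.12%. Within 1 Mb of the first peak of a chromosome, 5 of 15 isolated peaks and 10 of 297 remaining peaks were touched. Without the first 1 Mb, 18 of 1200 isolated peaks (1.50%) were touched.

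Touched isolated peaks often had a −log10 p that was high for their fold enrichment. A line of log2 of the −log10 p on fold was fitted over all autosomal Kdm6bMUT peaks under 10000 bases, and the 1% of peaks highest above it were marked. At a given fold, the −log10 p grows with the number of reads at the site. The marked peaks included 36 isolated peaks, 2.96% of them, and 0.973% of the remaining peaks. Of these 36, 15 (41.7%, interval 25.5% to 59.2%) were touched by a Kdm6bWT peak, against 3.93% (2.70% to 5.50%) of the marked remaining peaks. Of the other 1179 isolated peaks, 8 (0.679%, 0.293% to 1.33%) were touched. The weighted share in the other remaining peaks, 0.955%, lies inside that interval. The line and the 1% limit were chosen after the scores had been plotted, so they cannot serve as a test of which peaks are touched. The limit cuts a continuous range and does not show separate groups. Whether the marked sites are H3K27me3 or sites that gather reads in any library was not tested.

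The touched share of isolated peaks was also high at high scores, which is not a separate observation. The 8 touched isolated peaks scoring 40 or more were all among the 15 marked touched peaks. Of the 12 isolated peaks with a Kdm6bMUT score of 40 or more, 8 (66.7%, interval 34.9% to 90.1%) were touched, against 8 of 75 remaining peaks (10.7%, 4.72% to 19.9%). At scores from 30 to 39 it was 2 of 14 (14.3%, 1.78% to 42.8%) against 1.69% of the remaining peaks, just below that interval. At scores from 10 to 14, which 44.9% of the isolated peaks had, 2 of 546 (0.366%, 0.0444% to 1.32%) were touched, and 1.05% of the remaining peaks. At scores from 15 to 19 it was 8 of 499 (1.60%, 0.695% to 3.13%) and 2.01%, and at 20 to 29 it was 3 of 144 (2.08%, 0.432% to 5.97%) and 3.09%. In the classes from 15 to 29 the share of remaining peaks, which are wider, lies inside the interval of the isolated peaks.

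**Figure D5:**
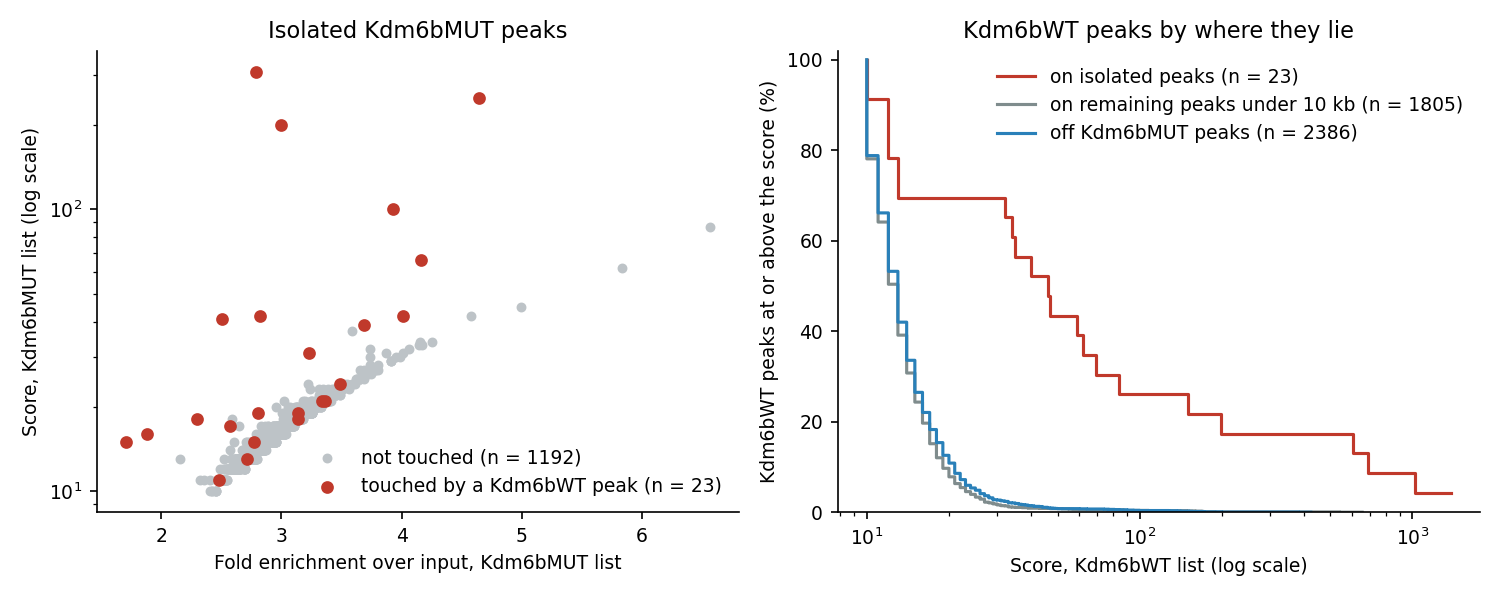
Left, score (log scale) against fold enrichment in the Kdm6bMUT list for 1215 isolated peaks, with the 23 touched by a Kdm6bWT peak in red. Right, share of Kdm6bWT peaks (%) at or above each Kdm6bWT score (log scale) for the 23 on isolated peaks, the 1805 on remaining peaks and the 2386 off Kdm6bMUT peaks. Many touched peaks stand above the band formed by the others, and 16 of the 23 reach the top 5% of Kdm6bWT scores.

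Kdm6bWT peaks beside isolated peaks were counted in the flanks. Of the 1215 isolated peaks, 17 (1.40%, interval 0.817% to 2.23%) were not touched but had a Kdm6bWT peak within 5 kb, against 4.05% of the weighted remaining peaks and 4.55% of all autosomal Kdm6bMUT peaks. Within 50 kb, where by the rule no other Kdm6bMUT peak lay, it was 100 (8.23%, 6.75% to 9.92%), against 29.0% and 31.9%. About as many Kdm6bWT peaks lie on Kdm6bMUT peaks (50.2%) as off them, and the rule keeps the former out of these flanks, so the lower shares near isolated peaks are shaped by the rule. The distance from an isolated peak to the nearest Kdm6bWT peak had a median of 310 kb, compared with 100 kb for remaining peaks, and is shaped by the rule in the same way. Counted by their centres, 109 Kdm6bWT peaks that touched no Kdm6bMUT peak lay in the 119 Mb within 50 kb of isolated peaks, or 0.915 per Mb (95% exact Poisson interval 0.752 to 1.10, counting error only). Over all autosomal length outside Kdm6bMUT peaks the density was 1.11 per Mb (1.06 to 1.15), and the intervals overlap. Inside isolated peaks lay 18 centres, a density of 16.5 per Mb (9.79 to 26.1), compared with 7.74 per Mb (7.35 to 8.15) inside remaining peaks. Without Kdm6bMUT scores above 31 the densities were 8.34 per Mb (3.81 to 15.8, from 9 centres) and 7.68 per Mb (7.29 to 8.09).

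From the side of the Kdm6bWT list, isolated Kdm6bMUT peaks accounted for little. Of 4788 autosomal Kdm6bWT peaks, 2402 (50.2%) lay on a Kdm6bMUT peak and 23 on an isolated one. The 23 were 0.480% (interval 0.305% to 0.720%) of all autosomal Kdm6bWT peaks and 0.958% (0.608% to 1.43%) of those on a Kdm6bMUT peak.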

How the data were processed

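Both ChIP peak lists were used. The submitters' processing notes name, without roles, mm9 as build, MACS2, Bowtie2 (2.2.2), Subread (1.5.1), STAR and featureCounts. The lists have no header and follow the column order of a MACS2 broad peak list. The score, the fold enrichment (a ratio over input) and the −log10 p and −log10 q of each peak are values deposited by the authors. Caller settings: not given in the sources used here. Positions are mm9, counted from 1. The annotation at hand is for GRCm38, so genes, base composition and sequences were not analysed here.

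Gaps, widths and overlaps (at least 1 base) were computed in pandas 2.3.3, numpy 2.4.6 and scipy 1.17.1 under Python 3.11.15. Plots used matplotlib 3.10.9. The code was tested on simulated data. The set and the measures were chosen with earlier results of these data known. The named regions are the 3 widest, 3 highest-scoring and 3 farthest isolated peaks, the 10 shared ones with the highest Kdm6bWT score, and the 2 nearest the gap limit on each side. Alternatives changed the gap, the width, the overlap, the score or p limit and the weighting.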

Additional observations from a re-analysis of the deposited data

How the results depend on the processing

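No paired analysis was possible because there is only 1 ChIP library per injection. Unknown read depth limits both lists. Other settings gave 36 values, of which 18 lay within 1.5 times the reported count or inside the interval of the reported share, ratio or median, and 18 did not. A gap of 20 kb gave 2813 isolated peaks, a median width of 755 bases, a touched share of 1.07% and a ratio to remaining peaks of 0.984. A gap of 100 kb gave 684 peaks, and a width of at least 1 kb 407 peaks with a ratio of 0.771. The ratio was 0.891 with no weighting by width, which compares narrow with wide peaks. It was 4.89 for peaks at least 50% covered, and most such isolated peaks had a −log10 p high for their fold. It was 1.19 with Kdm6bWT peaks within 1 kb counted and 3.41 with a score floor of 13 in both lists. Against remaining peaks with a gap over 20 kb it was 4.40. The following were chosen after seeing the data. Without scores above 31 the touched share was 1.17% and the ratio 1.21. Without the 1% of peaks highest in −log10 p for their fold they were 0.679% and 0.710. The ratio was 0.892 with 10% segments of the chromosome in place of width, and 3.36 for widths up to 1000 bases. The gap, width and floor limits alter the set itself. For the other settings the cause was not tested.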

Other observations

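The X chromosome was outside the rule. By the same limits 78 of its 1307 Kdm6bMUT peaks were isolated, 6.20% of its peaks under 10000 bases, against 1.43% on the autosomes. They had a median width of 608 bases and a median fold enrichment of 2.92. A Kdm6bWT peak touched 3 of the 78 (3.85%, 95% exact interval 0.800% to 10.8%) and 44 of the 1181 remaining X peaks under 10000 bases (3.73%, 2.72% to 4.97%).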
